A study of Homo sapiens with 33 samples.

Results

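The TLE co-repressor family was followed as 6 genes, TLE1, TLE2, TLE3, TLE4, TLE5 and TLE6, chosen by symbol from the 62446 gene rows counted in each of 33 RNA-seq libraries, by a rule that uses no measured level. The libraries came from 11 groups of 3. Nalm6 is an established B-cell precursor acute lymphoblastic leukaemia line, and CEM is an established T-lineage line of the same disease. Parental Nalm6 cells were left untreated (a first group, and a second group titled as the control for dexamethasone), or were given CHIR-99021 at 0.5 µM, prednisolone at 5 µM or dexamethasone at 100 nM for 24 h. A CRISPR/Cas9-edited TLE1 knockout of Nalm6 was left untreated or was given prednisolone at 5 µM or dexamethasone at 100 nM for 24 h, and CEM was left untreated or was given CHIR-99021 at 2 µM or prednisolone at 10 µM for 24 h. CHIR-99021 inhibits the kinase GSK3 and so activates canonical Wnt signalling, while prednisolone and dexamethasone are glucocorticoids. Nalm6 and knockout cells were grown in medium with charcoal-stripped serum, which is low in steroids. The labels give neither the clone nor the guide of the knockout, and no untreated knockout group is titled for dexamethasone.

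TLE proteins, the human relatives of Drosophila Groucho, do not bind DNA themselves. They are recruited by DNA-binding factors such as TCF/LEF, HES, RUNX and PAX5, oligomerise through an amino-terminal domain, bind their partners through a carboxy-terminal WD-repeat domain and bring in histone deacetylases. At Wnt target genes, TLE proteins bound to TCF/LEF are displaced by beta-catenin when the pathway is active. TLE1, TLE2, TLE3 and TLE4 are the full-length members, TLE5 (also called AES) is a short member without the WD repeats that can antagonise the others, and TLE6 is a divergent member known best from the oocyte. The series sets glucocorticoid and Wnt signalling against each other in leukaemia cells, so the family was read across both drugs, both lines and the knockout.

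The rows were ENSG00000196781.16_1 (TLE1), ENSG00000065717.15_1 (TLE2), ENSG00000140332.17_1 (TLE3), ENSG00000106829.20_1 (TLE4), ENSG00000104964.15_1 (TLE5) and ENSG00000104953.20_1 (TLE6). TLE1 and TLE4 lie next to each other among the protein-coding genes of chromosome 9. TLE6, TLE2 and TLE5 follow one another on chromosome 19, with GNA11 next to TLE5, and TLE3 is on chromosome 15. All 6 members had entries in the RefSeq promoter table (GRCh38.p14), with 11 transcription start sites between them. The 250 bases before the start are shown, 5′ to 3′ on the strand of the gene, for the member with the largest glucocorticoid response in Nalm6 (TLE1), the member that was higher in the knockout against both untreated parental groups (TLE2), the member that was higher against the first of them only (TLE6) and the member that was read in CEM but hardly at all in Nalm6 (TLE3). They are TLE1 at chr9:81689548-81689797 (minus strand), TLE2 at chr19:3029281-3029530 (minus), TLE6 at chr19:2977314-2977563 (plus) and TLE3 at chr15:70097918-70098167 (minus). Capitals mark matches to the E-box CACGTG and to the CCAAT box (CCAAT, or ATTGG on the other strand).
TLE1: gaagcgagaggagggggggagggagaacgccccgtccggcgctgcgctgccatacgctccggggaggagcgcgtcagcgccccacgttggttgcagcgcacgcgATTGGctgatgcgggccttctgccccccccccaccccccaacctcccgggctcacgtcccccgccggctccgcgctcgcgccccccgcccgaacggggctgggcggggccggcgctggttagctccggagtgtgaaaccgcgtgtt
TLE2: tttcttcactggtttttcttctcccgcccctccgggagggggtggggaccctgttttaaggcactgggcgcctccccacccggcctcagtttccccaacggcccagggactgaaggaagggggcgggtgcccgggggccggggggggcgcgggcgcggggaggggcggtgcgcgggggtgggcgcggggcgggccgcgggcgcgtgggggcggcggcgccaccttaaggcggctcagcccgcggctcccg
TLE6: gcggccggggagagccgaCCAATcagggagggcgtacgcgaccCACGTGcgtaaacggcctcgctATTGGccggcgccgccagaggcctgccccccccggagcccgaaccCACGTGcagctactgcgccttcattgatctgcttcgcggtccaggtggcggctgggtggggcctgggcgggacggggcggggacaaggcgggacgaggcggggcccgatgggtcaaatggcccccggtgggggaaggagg
TLE3: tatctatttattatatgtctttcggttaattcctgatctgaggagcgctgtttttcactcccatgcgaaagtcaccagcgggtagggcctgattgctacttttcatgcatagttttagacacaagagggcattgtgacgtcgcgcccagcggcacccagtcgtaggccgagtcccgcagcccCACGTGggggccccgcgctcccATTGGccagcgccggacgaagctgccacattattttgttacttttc
The TLE1 window was 75.2% G and C, the TLE2 window shown 77.2%, the TLE6 window 73.2% and the TLE3 window shown 53.6%, against a median of 58% over the 35116 windows of the table. TLE2 and TLE3 had further windows that are not shown, TLE2 at 50.8% and TLE3 at 51.6 and 70.8%. Motifs were searched on both strands in the 250 bases of each window. The glucocorticoid response element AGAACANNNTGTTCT was in none of the 11 windows of the family and in 0.00285% of all windows. Its half-site AGAACA was in 1 window, of TLE5 (12.4% of all windows), and the TCF/LEF site ATCAAAG was in none (2.26% of all windows). The E-box CACGTG was in the TLE3 window shown and 2 times in the TLE6 window (6.34% of all windows), and the CCAAT box was in a window of TLE1, TLE3, TLE4 and TLE6 (32% of all windows). These matches are letters in a window and say nothing of binding.

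Gene counts totalled 25292579 to 61930057 per library, and levels are given as counts per 1000000 of that total (CPM). A count of 3 corresponded to 0.0484 to 0.119 CPM. Libraries of the same group differed by more than counting noise, with a chi-square per degree of freedom of 1.85 to 43.7 between pairs. The highest values were those of CHIR-99021 replicate 3 in Nalm6, at 42.1 and 43.7 against the other replicates of its group. In Nalm6 and knockout groups 7 of 7 B-lineage markers reached 1 CPM, and in CEM 8 of 8 T-lineage markers did. In CEM 3 of 7 B-lineage markers reached 1 CPM too, while EBF1 and CD22 were at or under 3 counts. The 7 B-lineage markers summed to 46.3 to 47.5 CPM in untreated CEM and to 1685 to 1699 CPM in the first untreated Nalm6 group. Replicate 1 of the second untreated Nalm6 group stood apart in some T-lineage markers. It held 58 counts over CD3D, CD3E, CD3G, CD5, CD7 and TRBC2, against no more than 2 in any other Nalm6 or knockout library. Untreated CEM held 60741 to 85895. The T-lineage markers LCK and TRAC were read in every Nalm6 and knockout library, at 634 to 2099 and 13 to 424 counts. Below, T-lineage counts are those of CD3D, CD3E, CD3G, CD5, CD7 and TRBC2 only. The 2 untreated Nalm6 groups also differed from each other, with 50.2% of tested genes called, and so did 5 of the 5 TLE genes tested between them. Reads outside genes made up 26.4 to 28.3% in the first untreated Nalm6 group and 19.2 to 19.7% in the second. In the untreated knockout they made up 23.9 to 27.5%, and whether this bears on the differences was not tested. Which titles were handled together is not given beyond these names, so the knockout is set against both untreated groups below. Genes are called at a Benjamini-Hochberg adjusted p under 0.05 over all genes tested in the comparison, from quasi-likelihood fits in edgeR, and an error after a log2 fold change is its standard error. The study calls its experiments independent for some of the groups, and p-values measure the spread between these libraries.

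**Figure D1:**
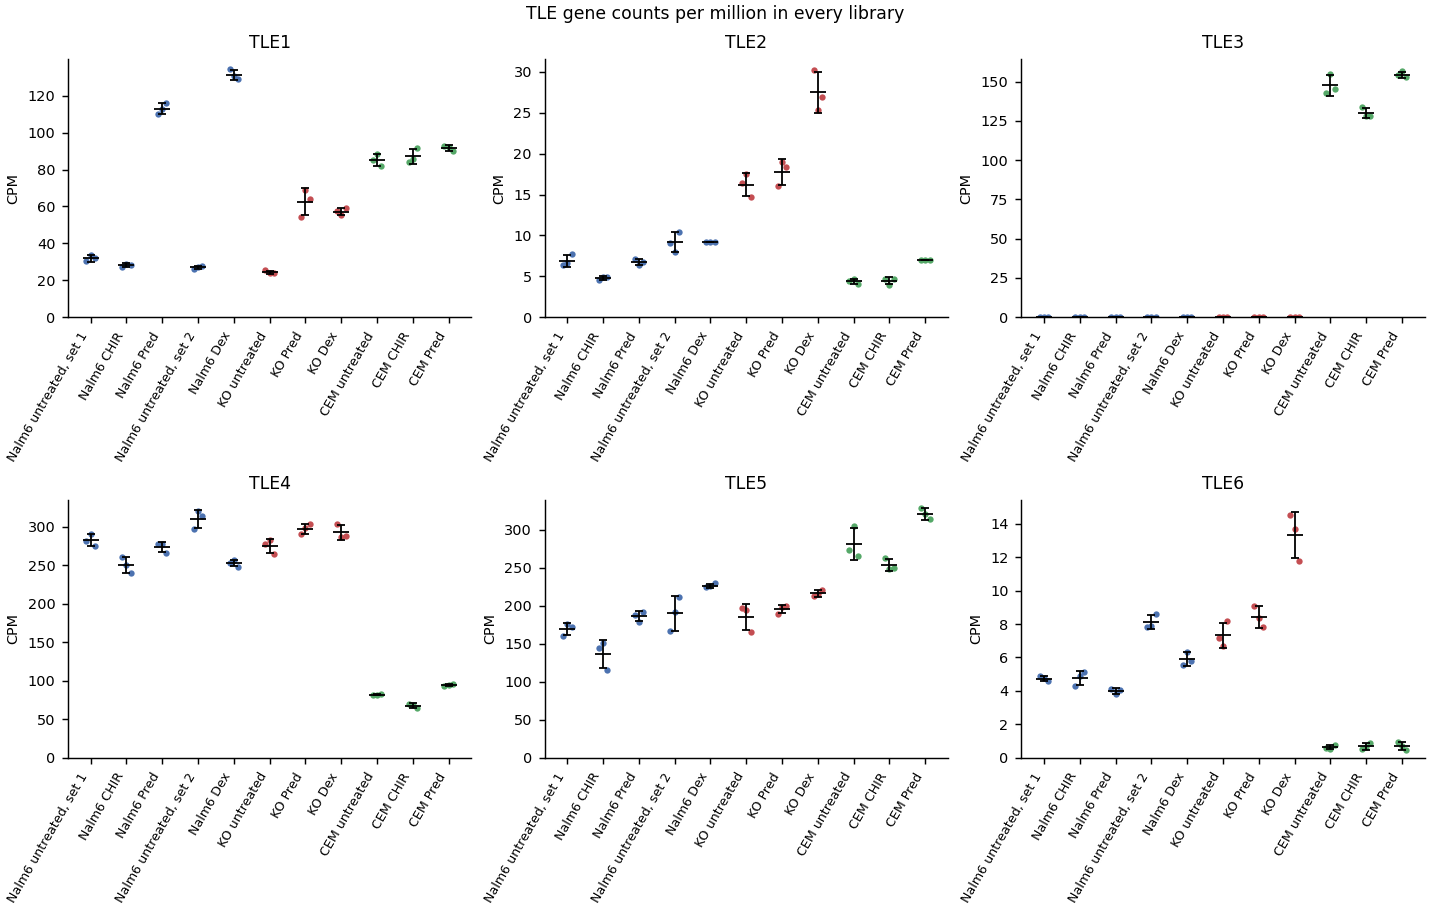
CPM (vertical axis, from 0) of the 6 TLE genes in each library (points), by group, with the mean and SD (black, n = 3). Parental Nalm6 is blue, the knockout (KO) red and CEM green; sets 1 and 2 are the first and second untreated Nalm6 groups, and TLE1 climbs to 131 CPM in Nalm6 under dexamethasone while TLE3 is near 0 outside CEM.

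TLE1, the targeted gene, was still read in the knockout. Untreated knockout libraries held 25.4, 24.0 and 24.0 CPM of TLE1, against 30.2, 34.0 and 31.8 CPM in the first untreated Nalm6 group and 26.0, 27.2 and 27.9 CPM in the second. All 3 knockout libraries lay below all 6 parental ones, by little. TLE1 was lower by 0.36 ± 0.06 on the log2 scale than in the first group (0.78-fold, adjusted p = 0.002, edgeR), while the difference of -0.17 ± 0.06 from the second group did not pass (adjusted p = 0.058, edgeR). In bulk RNA, fewer cells carrying a transcript and less of it per cell cannot be told apart. Counts over the whole gene do not show whether the transcript is intact or translated, so these libraries check the label only as far as this small shift.

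Among the other members, TLE2 was higher in the knockout against either parental group. Its libraries held 16.4, 17.5 and 14.7 CPM in the untreated knockout. The first untreated parental group held 6.35, 6.63 and 7.75 CPM, and the second 9.14, 7.97 and 10.4 CPM. The lowest knockout library was above every untreated parental library. The log2 fold change was 1.26 ± 0.10 against the first group (2.39-fold, adjusted p = 2.59e-05, edgeR) and 0.79 ± 0.11 against the second (1.73-fold, adjusted p = 6.36e-04, edgeR). Both calls held when any one library was left out, and the value against the second group was 0.79 without the library that held T-lineage counts.

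TLE6 gave no such agreement between references. It stood at 7.16, 6.70 and 8.16 CPM in the untreated knockout, at 4.88, 4.75 and 4.58 CPM in the first parental group and at 7.84, 7.88 and 8.59 CPM in the second. The knockout libraries were thus above the first group and overlapped the second. TLE6 was called higher against the first group (0.65 ± 0.10, adjusted p = 0.0011, edgeR) and was at -0.17 ± 0.10 against the second (adjusted p = 0.213, edgeR). The 2 untreated parental groups differed in TLE6 by 0.83 ± 0.08 (adjusted p = 3.91e-06, edgeR), with no drug involved.

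TLE4, the most counted full-length member in Nalm6, stood at 275 ± 8.93 CPM in the untreated knockout (SD, n = 3) and 283 ± 7.82 CPM in the first parental group. Its difference of -0.01 ± 0.05 was not called, with a 95% interval of -0.11 to 0.08 on the log2 scale. Against the second parental group, at 311 ± 11.8 CPM (SD, n = 3), TLE4 was lower by 0.20 ± 0.06 (adjusted p = 0.0186, edgeR), a call lost without replicate 2 (adjusted p = 0.0915, edgeR) or replicate 3 (adjusted p = 0.0617, edgeR) of that group. TLE5 was at 186 ± 17.3 CPM in the knockout and 169 ± 8.01 CPM in the first parental group (SD, n = 3), a difference of 0.16 ± 0.07 that was not called (adjusted p = 0.127, edgeR). Without knockout replicate 3, whose 166 CPM lay in the parental range, TLE5 was called higher (0.23, adjusted p = 0.00298, edgeR). Over the 5 members tested, 2 were called higher and 1 lower against the first group, where 15.3% of all tested genes were called higher and 11.8% lower (27.1% in all). Leaving out replicate 1 of the first parental group lowered the number of genes called there from 4655 to 2804. The median log2 fold change of the 5 members was 0.16, beside -0.01 over all genes. Against the second group 1 was called higher and 1 lower, where 19.5% of all tested genes were called higher and 17% lower (36.6% in all).

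Under dexamethasone the 2 lines were further apart. TLE1 reached 134, 131 and 129 CPM in parental Nalm6 and 57.5, 55.3 and 59.0 CPM in the knockout. TLE2 was at 9.18, 9.15 and 9.21 CPM in parental cells and at 30.3, 25.4 and 26.9 CPM in the knockout. TLE6 was at 5.58, 6.35 and 5.77 CPM in parental cells and at 14.5, 13.7 and 11.8 CPM in the knockout. For none of these 3 genes did the groups overlap. With 56.6% of tested genes called, the knockout was lower in TLE1 by 1.18 ± 0.03 (adjusted p = 6.31e-17, edgeR), and was higher in TLE2 by 1.59 ± 0.06 (3.02-fold, adjusted p = 1.19e-14, edgeR), in TLE6 by 1.19 ± 0.08 (2.27-fold, adjusted p = 1.32e-10, edgeR) and in TLE4 by 0.22 ± 0.03 (adjusted p = 1.82e-06, edgeR). TLE5, at 216 ± 4.42 CPM in the knockout and 227 ± 2.57 CPM in parental cells (SD, n = 3), was not called (adjusted p = 0.141, edgeR).

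The line difference under dexamethasone was tested against the line difference without drug, with the first untreated groups as reference, a comparison in which 30.3% of genes were called. All 5 tested members were called: TLE1 by -0.83 ± 0.07 (adjusted p = 1.06e-07, edgeR), TLE6 by 0.52 ± 0.13 (adjusted p = 0.0074, edgeR), TLE2 by 0.33 ± 0.12 (adjusted p = 0.0462, edgeR), TLE4 by 0.23 ± 0.05 (adjusted p = 0.0038, edgeR) and TLE5 by -0.22 ± 0.08 (adjusted p = 0.0386, edgeR). With the second parental group as the untreated reference, TLE6 moved to 1.34, TLE2 to 0.79, TLE4 to 0.41 and TLE1 to -1.03, all called, and TLE5 went to -0.01 (adjusted p = 0.975, edgeR). The TLE2 call with the first reference was lost in 9 of the 12 fits that leave out one library, and the TLE5 call in 10 of 12. The labels do not say whether the knockout under dexamethasone was handled together with the untreated knockout.

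TLE1 rose under both glucocorticoids in parental Nalm6. Prednisolone libraries held 110.0, 113 and 116 CPM, and the rise over the first untreated group was 1.80 ± 0.05 on the log2 scale (3.47-fold, adjusted p = 3.33e-15, edgeR). The rise under dexamethasone over the second untreated group was 2.25 ± 0.04 (4.75-fold, adjusted p = 1.68e-14, edgeR), and 2.21 without the library that held T-lineage counts. No treated library was near an untreated one. The other 4 tested members moved far less. The percentage of tested genes called was 54.8 under prednisolone and 60.5 under dexamethasone, so that a call by itself sets no gene apart here.

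TLE4 fell under dexamethasone, from 297, 320 and 314 CPM to 254, 256 and 248 CPM, by 0.33 ± 0.04 (adjusted p = 2.61e-06, edgeR), with no overlap. Under prednisolone TLE4 was at -0.08 ± 0.03 and not called (adjusted p = 0.0788, edgeR). TLE6 fell under dexamethasone by 0.49 ± 0.08 (adjusted p = 1.33e-04, edgeR) and under prednisolone by 0.28 ± 0.10 (adjusted p = 0.0203, edgeR), the latter lost without replicate 1 of the untreated group (adjusted p = 0.0734, edgeR) or replicate 2 of the prednisolone group (adjusted p = 0.0716, edgeR). TLE5 rose by 0.22 ± 0.06 under dexamethasone (adjusted p = 0.0069, edgeR), and by 0.12 without the untreated library that held T-lineage counts (adjusted p = 0.00587, edgeR). Its call under prednisolone (0.11 ± 0.04, adjusted p = 0.0339, edgeR) was lost with other size factors, with DESeq2, with either other filter and in 4 of the 6 fits that leave out one library. TLE2 was not called under either drug, with 95% intervals of -0.24 to 0.11 for prednisolone and -0.21 to 0.14 for dexamethasone. The drugs were at different doses and were set against different untreated groups, and their responses were not tested against each other. Prednisolone was not tested against the second untreated group either. Means under prednisolone were 6.77 CPM for TLE2, 3.98 for TLE6, 274 for TLE4 and 186 for TLE5. For the same genes the first untreated group had 6.91, 4.74, 283 and 169 CPM, and the second 9.17, 8.10, 311 and 190 CPM.

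In the knockout TLE1 rose under prednisolone too, to 54.5, 69.0 and 64.1 CPM, by 1.31 ± 0.08 (2.48-fold, adjusted p = 1.09e-06, edgeR), and it was the one member called there, where 41.7% of tested genes were called. The rise was smaller than in parental Nalm6 by 0.46 ± 0.10 on the log2 scale (adjusted p = 0.0136, edgeR), where 3.48% of genes were called for such a difference. That call was lost without replicate 1 of the first untreated Nalm6 group (-0.42, adjusted p = 0.0515, edgeR). TLE6 differed between the responses by 0.47 ± 0.15 and was not called (adjusted p = 0.0996, edgeR), although it was called without knockout untreated replicate 3 (0.55, adjusted p = 0.0218, edgeR). Leaving out that library raised the number of genes called for this difference from 624 to 1852, and leaving out replicate 1 of the first untreated Nalm6 group lowered it to 361.

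In CEM, TLE1 did not pass the test under prednisolone at 10 µM. It stood at 85.2, 88.5 and 82.1 CPM untreated and at 92.7, 92.2 and 89.9 CPM treated, a difference of 0.07 ± 0.03 (adjusted p = 0.104, edgeR) that was called without untreated replicate 2 (0.10, adjusted p = 0.0174, edgeR). TLE2 rose from 4.44, 4.65 and 4.08 CPM to 7.02, 7.01 and 6.95 CPM, by 0.63 ± 0.09 (1.55-fold, adjusted p = 1.03e-05, edgeR). TLE4 rose by 0.18 ± 0.03 (adjusted p = 1.14e-04, edgeR) and TLE5 by 0.16 ± 0.04 (adjusted p = 0.005, edgeR), where 45.1% of tested genes were called. TLE3, at 154 ± 1.96 CPM treated and 147 ± 6.49 CPM untreated (SD, n = 3), and TLE6 were not called. The response differed between CEM and Nalm6 in TLE1 by -1.71 ± 0.06 (adjusted p = 2.57e-16, edgeR), in TLE2 by 0.71 ± 0.13 (adjusted p = 1.12e-04, edgeR) and in TLE4 by 0.26 ± 0.05 (adjusted p = 7.49e-05, edgeR), a comparison added after the data were seen in which 26.9% of genes were called and the doses differ.

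**Figure D2:**
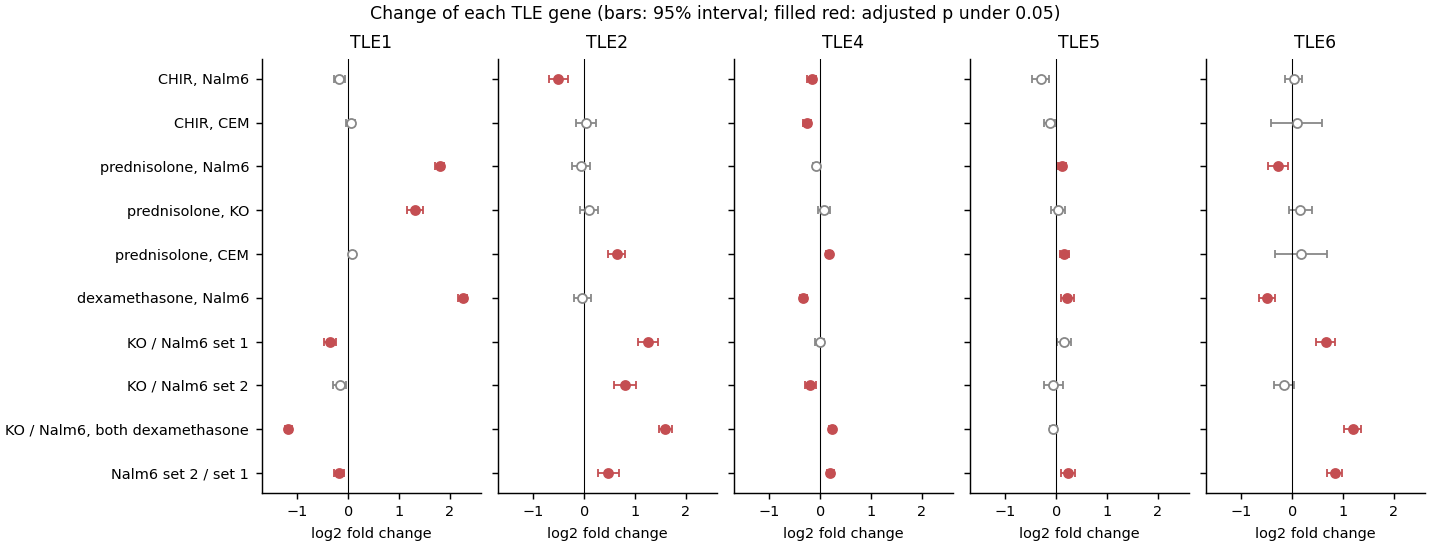
Log2 fold change (horizontal axis) of 5 TLE genes in each comparison (rows), with 95% intervals from the normal quantile, which are narrower than the F test implies. Filled red points passed adjusted p under 0.05 and open grey points did not. TLE1 stands at 1.80 and 2.25 under the glucocorticoids in Nalm6, and TLE2 is to the right of 0 in each row that sets the knockout against Nalm6.

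Under CHIR-99021, 2 of 5 tested members were called in Nalm6, where 7.88% of all tested genes were called, and 2 of 6 in CEM, where 10.8% were. The median log2 fold change of the members was -0.18 in Nalm6 and -0.05 in CEM, beside -0.007 and -0.00471 over all genes. In Nalm6 at 0.5 µM, TLE2 fell from 6.35, 6.63 and 7.75 CPM to 4.53, 4.98 and 4.93 CPM, by 0.52 ± 0.10 (0.70-fold, adjusted p = 0.0098, edgeR). The groups did not overlap, and the call was lost without untreated replicate 3 (-0.42, adjusted p = 0.0516, edgeR). TLE4 fell by 0.17 ± 0.04 (adjusted p = 0.0392, edgeR), a call lost in 5 of the 6 fits that leave out one library. TLE5 was at -0.30 ± 0.09 (adjusted p = 0.0556, edgeR) and TLE1 at -0.18 ± 0.05 (adjusted p = 0.0764, edgeR), neither called. Both were called without replicate 3 of the CHIR-99021 group (TLE5 -0.19, adjusted p = 0.0043; TLE1 -0.17, adjusted p = 0.0441, edgeR), and the number of genes called there ran from 409 without untreated replicate 3 to 2708 without that library. In CEM at 2 µM, TLE4 fell from 81.7, 81.6 and 82.6 CPM to 69.8, 69.0 and 64.5 CPM, by 0.25 ± 0.04 (adjusted p = 0.0016, edgeR). TLE3 fell by 0.16 ± 0.04 (adjusted p = 0.0282, edgeR), a call lost without untreated replicate 2 or 3 or CHIR-99021 replicate 2. The number of genes called in CEM went from 1865 to 1001 without that last library. TLE2 in CEM was at 0.04 ± 0.10, and its difference from the response in Nalm6 was 0.56 ± 0.14 and not called (adjusted p = 0.0754, edgeR), where 1.17% of genes were called.

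TLE3 separated the lines. It had 0 counts in 22 of the 24 Nalm6 and knockout libraries and 4 counts in all 24 together. Of those, 3 were in replicate 1 of the second untreated Nalm6 group, the library with T-lineage counts, and 1 was in a knockout library under dexamethasone. In CEM it held 143, 155 and 145 CPM untreated, which was at least 2734-fold higher than 3 counts in each library of the first untreated Nalm6 group. Of the 3 protein-coding neighbours on each side of TLE3 on chromosome 15, untreated Nalm6 held RPLP1 at 1260 CPM, KIF23 at 90.8 CPM, UACA at 7.59 CPM, PAQR5 at 0.036 CPM, and LARP6 and LRRC49 at 0 counts.

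The other members differed between untreated CEM and Nalm6 as well, where 82.8% of tested genes were called. TLE1 was higher in CEM by 1.47 ± 0.04 (2.76-fold, adjusted p = 1.36e-14, edgeR) and TLE5 by 0.78 ± 0.05 (1.72-fold, adjusted p = 1.51e-10, edgeR). TLE4 was lower in CEM by 1.74 ± 0.03 (0.30-fold, adjusted p = 1.25e-17, edgeR), TLE2 by 0.60 ± 0.09 (adjusted p = 2.33e-05, edgeR) and TLE6 by 2.86 ± 0.14 (0.14-fold, adjusted p = 7.78e-12, edgeR). TLE6 in CEM held 25 to 28 counts in an untreated library. Set against the second untreated Nalm6 group, TLE2 went to -1.10 and TLE6 to -3.71, both called.

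To compare levels between members, CPM was divided by the kilobases of each gene's exon union. On that scale TLE4 made up 80.7% ± 0.86 of the summed level of TLE1 to TLE4 in untreated Nalm6 of the first group (SD, n = 3), and TLE1 15.2% ± 0.59. Under prednisolone the share of TLE1 was 39.6% ± 1.17 and under dexamethasone 44.7% ± 0.45. In untreated CEM, TLE1 made up 43.3% ± 0.64, TLE3 29.1% ± 0.62 and TLE4 24.9% ± 0.81. In the knockout TLE1 was at 11.7% ± 0.45 untreated, 23.8% ± 1.78 under prednisolone and 21.5% ± 0.77 under dexamethasone (SD, n = 3 for each). TLE2 made up 9.41% ± 0.51 of the untreated knockout's sum and 4.01% ± 0.49 of the first parental group's.

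The summed level of the untreated knockout overlapped the first parental group and lay below the second. It ran from 41.0 to 43.8 CPM per kilobase in the knockout, from 42.0 to 44.1 in the first parental group and from 43.9 to 46.6 in the second. The gain in TLE2 and the loss in TLE1 were both small beside TLE4. Under prednisolone the sum was 58.1 ± 0.33 in Nalm6 and 53.5 ± 2.51 in the knockout, and under dexamethasone 59.9 ± 0.92 and 54.3 ± 1.88 (CPM per kilobase, SD, n = 3). With 3 libraries against 3 an exact permutation test cannot go below p = 0.10, so these sums are given without a test. The level of TLE5 over the sum of TLE1 to TLE4 was 0.75 ± 0.03 in untreated Nalm6 and 1.32 ± 0.06 in untreated CEM (SD, n = 3). All of these levels depend on the length used. By the longest protein-coding transcript TLE1 made up 11.95% of the full-length members in untreated Nalm6 and 33.1% under prednisolone, and by the median transcript length 8.38% and 25.0%. TLE4 made up the largest share in untreated Nalm6 and under either glucocorticoid with each of the 3 lengths. In untreated CEM the order of the members turned with the length. TLE3 led by the longest protein-coding transcript (37.8%, with TLE1 at 33.7% and TLE4 at 25.9%), and TLE4 led by the median transcript length (42.4%, with TLE1 at 36.5% and TLE3 at 18.7%). TLE5 over the sum was 1.30 in untreated Nalm6 and 2.30 in CEM by the longest protein-coding transcript, and 0.351 and 0.953 by the median transcript length, so whether TLE5 exceeds the sum is not settled by these counts. About 10.6% of the exon bases of TLE5 lie across from an opposite-strand gene, AC005944.1, in the annotation, and without strand 49.3 to 59.7% of its counts remained, so its level rests on the strand setting.

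**Figure D3:**
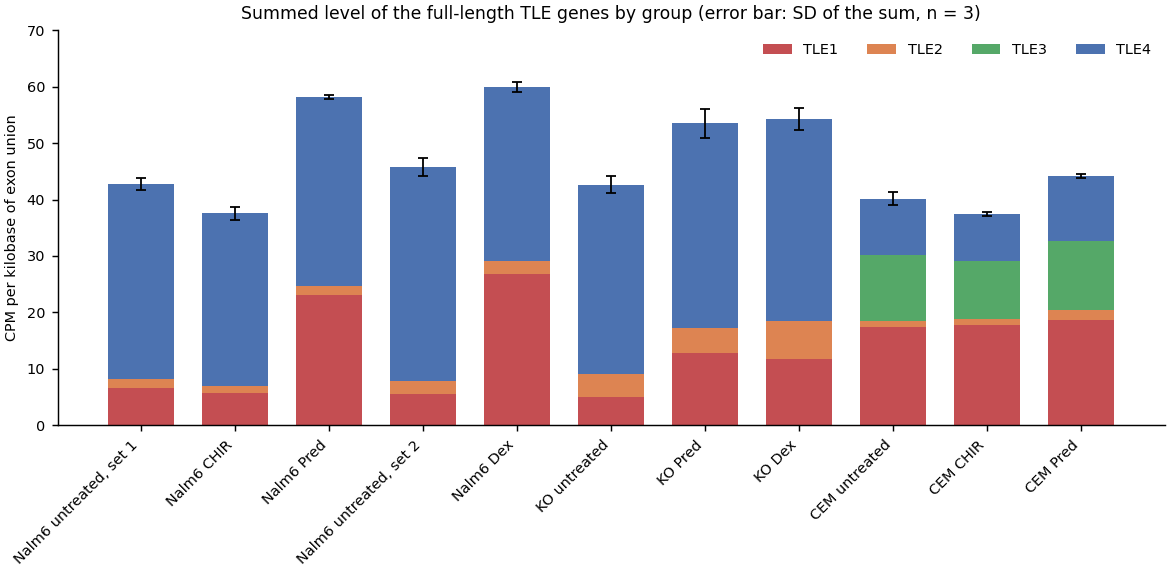
Summed level of the 4 full-length TLE genes by group, in CPM per kilobase of exon union (stacked bars of group means from 0; the error bar is the SD of the sum, n = 3). The sum is 42.8 in untreated Nalm6 of the first group and 42.6 in the untreated knockout, and the red TLE1 part widens under prednisolone and dexamethasone.

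Factors that recruit TLE proteins moved in both directions. Under prednisolone in Nalm6, LEF1, a DNA-binding partner of beta-catenin, fell by 1.06 ± 0.04 (adjusted p = 1.42e-13, edgeR) and CTNNB1, which encodes beta-catenin, rose by 0.26 ± 0.04 (adjusted p = 1.17e-05, edgeR). Under this drug 28.7% of all tested genes were called higher and 26.1% lower. LEF1 and CTNNB1 were the called genes among 3 tested of 5 in the TCF/LEF list, whose median of 0.07 stands beside 0.03 for all genes. RUNX1, a factor of blood cell differentiation, fell by 1.28 ± 0.04 (adjusted p = 1.34e-13, edgeR) and its partner CBFB by 0.38 ± 0.05 (adjusted p = 1.38e-06, edgeR), 2 called of 3 tested in the RUNX list of 4 (median -0.45). PRDM1, the repressor that drives plasma cell differentiation, rose from 0.68 ± 0.07 to 10.6 ± 1.60 CPM, and PAX5, which holds B-cell identity, fell by 0.56 ± 0.04 (adjusted p = 4.70e-10, edgeR). Of the 4 other TLE-binding factors 1 was called higher and 2 lower, with a median of -0.12.

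HEYL, a repressor of the HES/HEY family, went from 0.036 ± 0.018 CPM untreated (1 to 3 counts) to 6.23 ± 0.81 CPM under prednisolone (SD, n = 3), and 2 of 5 tested HES/HEY genes of 9 were called higher. Under dexamethasone HEYL was at 7.45 ± 0.85 CPM in Nalm6 and at 0.12 ± 0.02 CPM in the knockout (SD, n = 3), and under prednisolone the knockout held 1.15 ± 0.03 CPM. Of the 12 histone deacetylases and other co-repressors, all tested, 4 were called higher and 5 lower under prednisolone (median -0.05), with HDAC2 down by 0.48 ± 0.03 (adjusted p = 2.44e-09, edgeR) and SIN3B up by 0.43 ± 0.04 (adjusted p = 5.27e-08, edgeR). Of the 8 modifiers and competitors tested of 9, 3 were called higher and 4 lower (median -0.02).

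Between the untreated knockout and the first parental group, where 27.1% of all tested genes were called, partners moved in both directions too. LEF1 was lower by 0.36 ± 0.06 (adjusted p = 0.00135, edgeR), 1 called of 3 tested, and it was lower by 0.36 against the second group too. CTBP2, a co-repressor, was lower by 1.00 ± 0.05 (adjusted p = 1.55e-06, edgeR) and HDAC1 higher by 0.20 ± 0.05 (adjusted p = 0.0122, edgeR), the 2 called of 12 co-repressors (median 0.02, beside -0.01 for all genes). HEY2 was higher by 1.21 ± 0.17 (adjusted p = 8.44e-04, edgeR), and the second untreated parental group was itself higher than the first in HEY2 by 1.42 ± 0.16 (adjusted p = 2.16e-05, edgeR). Of the 4 other TLE-binding factors, PRDM1 was higher by 0.83 ± 0.20 (adjusted p = 0.0123, edgeR) and PAX5 lower by 0.27 ± 0.07 (adjusted p = 0.0212, edgeR). None of 3 tested RUNX genes was called, and edgeR gave BCL9, a co-activator that links beta-catenin to PYGO, as higher by 0.64 ± 0.13 (adjusted p = 0.0055), one of 3 modifiers called higher, with 1 called lower, of 8 tested. Apart from LEF1, the knockout values of single genes above are against the first group only. Against the second group, 19.5% of all tested genes were called higher and 17% lower, and the list counts differed. Modifiers had 1 called higher and 1 lower of 8 tested, and co-repressors 2 and 2 of 12. Other TLE-binding factors had 1 and 2 of 4, and HES/HEY genes 0 and 0 of 3.

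CEM held some partners that were at or near 0 in Nalm6. Between the untreated lines, 8098 of all 19041 tested genes were called higher in CEM and 7677 lower (median 0.005). The TCF/LEF list had 2 called higher and 0 lower of 4 tested (median 0.108), and so did the RUNX list (median 0.696). Of 5 tested HES/HEY genes, 2 were called higher and 3 lower (median -1.46). Of the 4 other TLE-binding factors, 1 was called higher and 2 lower (median -2.6). TCF7, the T-lineage TCF factor, stood at 513 ± 45.5 CPM in untreated CEM and 0.031 ± 0.013 CPM in untreated Nalm6, RUNX3 at 16.5 ± 2.06 and 0 CPM, and HES1, the Notch target, at 68.0 ± 2.74 and 0.089 ± 0.013 CPM (SD, n = 3). PAX5 ran the other way, with 707 ± 3.22 CPM in Nalm6 and 0.44 ± 0.18 CPM in CEM. TBL1X and CTBP2, both co-repressors, were lower in CEM, at -4.19 ± 0.07 and -3.38 ± 0.05 on the log2 scale (adjusted p = 3.44e-18 and 2.55e-18, edgeR). Most of their list went the other way: of the 12 co-repressors tested, 8 were called higher in CEM and 4 lower (median 0.205). Under prednisolone in CEM, LEF1 rose by 0.64 ± 0.03 (adjusted p = 4.30e-12, edgeR), and its response differed from that in Nalm6 by 1.71 ± 0.05 (adjusted p = 3.20e-18, edgeR). RUNX2 went from 0.32 ± 0.05 to 18.1 ± 0.77 CPM and HES1 from 68.0 to 28.4 CPM in CEM under the drug (SD, n = 3).

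Across the 24 Nalm6 and knockout libraries the genes whose log2 CPM followed each member most closely were ranked by Pearson's r among 11937 genes, as a description, since libraries of a group share their treatment. For TLE1 they were NFKBIA, which encodes an inhibitor of NF-kappa-B (r = 0.991), TXNIP (r = 0.988) and PIGV (r = 0.988). NFKBIA stood at 55.7 CPM in untreated Nalm6, 155 CPM under prednisolone and 102 CPM in the knockout under prednisolone, the same order as TLE1. In CEM, NFKBIA went from 44.7 to 109 CPM under prednisolone while TLE1 went from 85.3 to 91.6 CPM, and over all 33 libraries r was 0.642. For TLE2 the closest were PLCB2 (r = 0.974), NUDT16 (r = 0.968) and the immunoglobulin pseudogene IGHVII-60-1 (r = 0.963). For TLE6 they were SLC2A5, a fructose transporter (r = 0.961), MGST3 (r = 0.96) and COX15 (r = 0.955), and for TLE5 CTDSP2 (r = 0.969), TBC1D17 (r = 0.966) and GRN (r = 0.943). TLE4 had lower values, with XBP1 (r = 0.863), MAPK8IP3-AS1 (r = 0.843) and JARID2 (r = 0.838).

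Among the members themselves TLE2 and TLE6, neighbours on chromosome 19, had the highest correlation over these 24 libraries (r = 0.878), and TLE1 with TLE2 had 0.074. GNA11, a G-protein subunit gene next to TLE5, was examined after its values were seen. It stood at 22.2, 19.5 and 19.2 CPM in the untreated knockout, at 10.6, 12.2 and 12.3 CPM in the first parental group and at 11.1, 10.7 and 12.4 CPM in the second. GNA11 was higher in the knockout by 0.82 ± 0.08 against the first group (adjusted p = 1.17e-04, edgeR), by 0.80 ± 0.09 against the second (adjusted p = 1.71e-04, edgeR) and by 0.63 ± 0.06 under dexamethasone (adjusted p = 1.03e-08, edgeR). TLE5, which lies between TLE2 and GNA11, was called in none of these 3 comparisons, and neither were GNA15 (-0.06 ± 0.05, adjusted p = 0.427, edgeR) and ZNF77 (-0.12 ± 0.07, adjusted p = 0.275, edgeR) against the first group. GNA15 was lower by 0.17 ± 0.06 against the second group (adjusted p = 0.0464, edgeR). S1PR4, the third gene past TLE5, was higher by 0.31 ± 0.06 against the first group (adjusted p = 0.00316, edgeR) and by 0.20 ± 0.04 under dexamethasone (adjusted p = 6.29e-05, edgeR), and was at -0.18 ± 0.07 against the second group (adjusted p = 0.0616, edgeR). ZNF57 was called under dexamethasone (0.20 ± 0.07, adjusted p = 0.0224, edgeR) and against neither untreated group. Under CHIR-99021 in Nalm6, GNA11 fell by 0.49 ± 0.08 (adjusted p = 0.00447, edgeR). The correlation of GNA11 was 0.953 with TLE2, 0.78 with TLE6 and 0.64 with TLE5. GNA15, ZNF57 and ZNF77 were lower, with TLE2 at 0.11 with GNA15, -0.256 with ZNF57 and -0.396 with ZNF77, and no correlation was computed for S1PR4. For the same neighbours TLE6 was at 0.244, 0.0532 and -0.233, and TLE5 at 0.493, -0.578 and -0.621.

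**Figure D4:**
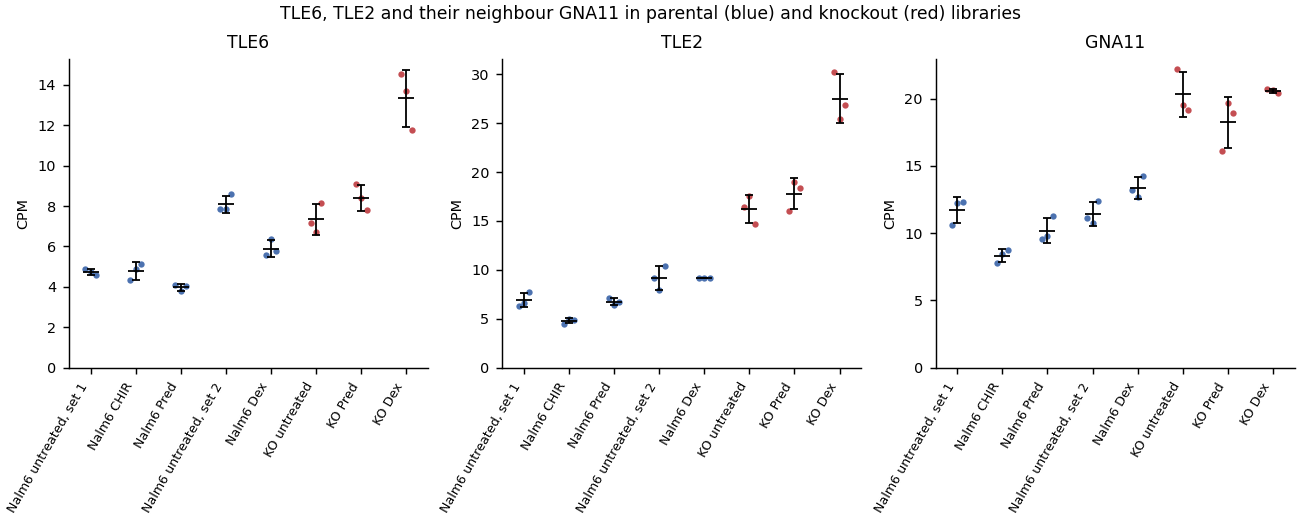
CPM (vertical axis, from 0) of TLE6, TLE2 and GNA11 in each parental Nalm6 (blue) and knockout (red) library, with the mean and SD (black, n = 3). TLE2 and GNA11 are above both untreated parental groups in the untreated knockout, while TLE6 overlaps the second of them.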

How the data were processed

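Total RNA of 33 cell line libraries was sequenced, 3 per group, and groups and replicate numbers were taken from the titles. Per the file headers and layout, the authors deposited counts per gene without normalization, 1 table per library, in the layout STAR writes: an unstranded column, 2 stranded columns and 4 rows of totals that name no gene. The submitters' processing notes name Bowtie2, DESeq2 and the build hg19, with no role or version, and the annotation is not given in the sources used here. The treatment text in the labels gives prednisolone to parental and CHIR-99021 to knockout cells, and the titles and treatment fields were followed where it differs.

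The second stranded column was used, which held 12.3 to 15.3 times the counts of the other. The rows of totals (unmapped reads 2.84 to 11.2%, reads outside genes 18.4 to 32.7%) were left out. Symbols came from a table of gene IDs, with 58652 of 62446 rows matched, and lengths and overlaps from GENCODE release 29. Each comparison was fitted in edgeR 4.0.16 (R 4.3.3) on its own groups with filterByExpr, TMM factors and the quasi-likelihood F test, adjusted by Benjamini-Hochberg over all genes tested, and the fits were tested on simulated data. TLE3 was left out by the filter in each comparison without CEM. Each comparison was repeated with the unstranded column, with DESeq2 1.42.0, with RLE factors, without the filter or with a minimum of 10 counts per library, with a block for the replicate number, and with each library left out. The 3 comparisons that set CEM responses against Nalm6 responses or the knockout against the second untreated group, the second reference under dexamethasone and the longest coding transcript as length were chosen after seeing the data. Named genes were the 6 members, up to 2 called genes with the largest change per list and comparison, and the 3 genes most like each member over 24 libraries. The rule takes the members by symbol alone, but the family itself and the lists were proposed with earlier results of these data known. The number of reads limits low genes. The floors of 3 counts cover counting error only. Standard errors were taken as the absolute log2 fold change over the square root of the F statistic, which holds the spread between libraries. The 95% intervals use the normal quantile, so they are narrower than the F test implies. For TLE1 under prednisolone in CEM the interval was 0.004 to 0.141, while the unadjusted p was 0.0537 (edgeR).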

Additional observations from a re-analysis of the deposited data

Results flagged for a closer look

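Responses that differed between lines by a test of the difference itself are repeated here, on the log2 scale and with edgeR's quasi-likelihood test. The prednisolone response of TLE1 differed between knockout and parental Nalm6 by -0.46, a call lost without replicate 1 of the first untreated Nalm6 group (adjusted p = 0.0515, edgeR). The knockout-to-parental difference under dexamethasone, minus that without drug, was -0.83 for TLE1, 0.33 for TLE2, 0.23 for TLE4, -0.22 for TLE5 and 0.52 for TLE6. With the second untreated Nalm6 group as reference these values were -1.03, 0.79, 0.41, -0.01 and 1.34, and the one for TLE5 was not called. With the first reference, the TLE2 and TLE5 values of that comparison lost their call in most fits that leave out a library. The prednisolone response differed between CEM and Nalm6, at different doses, by -1.71 for TLE1, 0.71 for TLE2 and 0.26 for TLE4.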

How the results depend on the processing

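Of 44 calls of TLE genes in 15 comparisons, 33 held in every alternative run, 11 were lost in at least 1 and none changed sign. For the untreated knockout, the second parental group was not an alternative run but a comparison of its own. There TLE1 was not called (adjusted p = 0.058, edgeR). TLE6, called higher against the first group, was at -0.17 and not called (adjusted p = 0.213, edgeR). The counts of genes called that moved by over 1.5 times were, for CHIR-99021 in Nalm6, 2320 with no filter (4 TLE genes called), for the prednisolone response of the knockout minus parental 981 with no filter, and for CHIR-99021 in CEM minus Nalm6 473 with no filter (1 TLE gene) and 413 with DESeq2 (1 TLE gene).

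Deviations of same-numbered libraries from their group means correlated weakly (r from -0.083 to 0.082), and 9 of 33 correlated best with their own number. Between the first untreated Nalm6 group and the prednisolone group, the same-numbered values were 0.0385, 0.0821 and 0.052, each the best for its library. With 3 libraries per group these values cannot show whether same-numbered libraries were handled together. The main fits used no pairing. With the replicate block, CHIR-99021 in Nalm6 gave 925 genes and 1 TLE gene called, CHIR-99021 in CEM 1 TLE gene, and the knockout against the second untreated Nalm6 group 1 TLE gene.

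Leaving out one library in turn gave 409 to 2708 genes and 0 to 4 TLE genes for CHIR-99021 in Nalm6, 1001 to 1948 genes and 1 to 2 TLE genes for CHIR-99021 in CEM, 149 to 388 genes for the difference between these 2 responses, 2804 to 6732 genes for the knockout against the first untreated group, 361 to 1852 genes and 0 to 2 TLE genes for the difference in prednisolone response between knockout and parental cells, 1 to 3 TLE genes for prednisolone in Nalm6, 3 to 4 for the dexamethasone difference and 1 to 2 for the knockout against the second group.

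The values that changed sign were those of TLE genes not called. With the unstranded column, TLE4 in the knockout went to 0.0047, and TLE5 to -0.055 under prednisolone in the knockout, 0.016 for the knockout under dexamethasone and 0.045 for the knockout against the second group. When one library was left out, TLE6 ran from -0.0248 to 0.0915 for CHIR-99021 in Nalm6, from -0.132 (and -0.0135) to 0.272 for CHIR-99021 in CEM, from -0.0781 to 0.368 for prednisolone in CEM, and from -0.152 (then -0.0354 and -0.00859) to 0.246 for the CHIR-99021 difference between the lines. TLE2 ran from -0.126 to 0.0276 under prednisolone and from -0.144 to 0.0464 under dexamethasone in Nalm6, and from -0.00611 (and -0.00473) to 0.117 under CHIR-99021 in CEM. TLE4 ran from -0.0333 to 0.00562 (and 6.75e-04) for the knockout against the first group. TLE5 ran from -0.0302 to 0.0714 under prednisolone in the knockout and from -0.150 to 0.0151 (and 0.0121) for the knockout against the second group. Over all 33 libraries r changed sign for PLCB2 with TLE2 (-0.087), JARID2 with TLE4 (-0.952), TBC1D17 with TLE5 (-0.152) and GRN with TLE5 (-0.453). The cause was not tested in any of these.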
